A study of Caenorhabditis elegans with 4 samples.

Results

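Nuclear hormone receptor genes of Caenorhabditis elegans were followed upon germline depletion of ATTF-6, a protein with an AT-hook, in adult animals. The genes were taken as every protein-coding gene in the count files whose WormBase symbol is nhr with a number, together with daf-12, unc-55, odr-7, sex-1 and fax-1. There were 274 such genes among 46934 identifiers. Of these, 216 had at least 10 counts summed over the 4 libraries and are described here, 40 had between 1 and 9 counts, and 18 were listed at 0 in every library. A filter on low counts left 188 receptor genes in the test.

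Nuclear hormone receptors are transcription factors that carry a zinc finger DNA-binding domain and a ligand-binding domain, and the best known of them are switched by steroids, fatty acids and other small lipids. Nematodes have a greatly expanded family. A small part of it has clear relatives in insects and vertebrates, whereas most members are thought to descend from a receptor like HNF4. In C. elegans the studied members act mainly in the intestine, the hypodermis and neurons, where they tune fat desaturation and oxidation, responses to diet and toxins, molting and the choice of reproductive growth or dauer arrest.

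The study asked how mRNA levels depend on ATTF-6. The depletion strain carried GFP::tev::aid::attf-6 on chromosome I, in which the endogenous gene bears a degron tag. It also carried the transgene wrdSi51 on chromosome II, which expresses the auxin receptor subunit TIR1, followed by F2A, mTagBFP2 and AID* with NLS, from the mex-5 promoter and the tbb-2 3'UTR. The control strain carried wrdSi51 alone. Both strains were placed on 4 mM auxin from the L4 stage and collected as adults at 20 °C, with 2 libraries per strain made from pools of whole animals. The mex-5 promoter drives TIR1 in the germ line, so that ATTF-6 was targeted there, whereas the RNA came from all tissues. The tag and the depletion of the protein occur in the same libraries and cannot be told apart. The study's figure legends speak of sequencing replicates, whereas its methods for the mRNA data speak of biological replicates. Separate cultures are not described for these libraries. The p-values therefore measure the spread between the libraries, and how far that spread is technical is not known. The sample titles call them small RNA libraries, whereas the protocol and the study's methods describe sequencing of long RNAs, and mRNA is what they were taken to measure.

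The libraries held 23923423 and 27269737 counts upon ATTF-6 depletion, against 32096525 and 29753993 in control. The depletion libraries differed more from each other than the control libraries did. The median difference between the replicates of a group over all genes tested was 0.23 on the log2 scale upon depletion and 0.11 in control. Over the receptor genes it was 0.21 upon depletion and 0.17 in control. The mRNA of attf-6 itself was at 101.0 and 125.9 CPM (counts scaled to library size with edgeR's TMM factors) upon depletion, against 163.0 and 173.2 CPM in control, a log2 fold change of -0.57 (SE 0.13, edgeR adjusted p = 0.0042). The degron acts on the protein, so this value does not measure the depletion.

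Receptor mRNAs made up 0.195% and 0.196% of all counts upon ATTF-6 depletion, against 0.163% and 0.165% in control. With edgeR's quasi-likelihood test and Benjamini-Hochberg adjustment over all 16591 genes tested, 87 of the 188 receptor genes were higher upon depletion at an adjusted p under 0.05, which is 46.3% beside 30.9% of all genes. Lower levels were found for 19 receptor genes, which is 10.1% beside 32.1% of all genes. The other 82 receptor genes were not called. Without control replicate 2 there were 57 higher and 12 lower, without control replicate 1 there were 12 lower, and DESeq2 called 53 higher. The median log2 fold change was 0.64 over the receptor genes, with quartiles of 0.26 and 0.93, and 0.16 over all genes, with quartiles of -0.83 and 0.80. In 130 receptor genes both depletion libraries lay above both controls, and in 28 both lay below, beside 44.1% and 38.2% of all genes. Upward calls with a log2 fold change of 1 or more numbered 36 of the 188 receptor genes, a share near the 16.0% of all genes. Downward calls of that size numbered 8 of the 188, beside 20.0% of all genes.

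These counts depend on what the libraries are scaled to. All 17 germ cell markers and all 12 oocyte markers were lower upon depletion, with medians of -1.23 and -2.47 on the log2 scale. The germ cell markers summed to 1260 and 1499 CPM upon depletion, against 3453 and 3464 CPM in control, and the oocyte markers to 1232 and 1525 CPM upon depletion, against 7819 and 7873 CPM in control. From images of the degron strain on auxin, the study reported atrophy of the germ line when depletion began at L4. In its mRNA data it also reported a modest fall in the median of germline transcripts, a different set from these markers. Fewer cells of a type and less RNA per cell cannot be told apart in RNA from whole animals, and their parts here were not tested. Of 10 sperm markers 9 were higher. Higher levels were also called for 8 of 10 intestine, 6 of 8 muscle, 5 of 10 neuron and 3 of 8 hypodermis markers, and 1 hypodermis marker was lower. Intestine markers summed to 7942 and 6302 CPM upon depletion, against 5365 and 5130 CPM in control. No marker was at 0 in any library.

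The libraries were also scaled to the summed counts of 24 genes of somatic tissues, of which 19 are also among the 36 somatic markers. Abundant genes weigh most in this sum. The muscle gene unc-54 alone gave 184470 of 644449 counts in depletion replicate 1 and 260310 of 757087 in depletion replicate 2. In control it gave 178050 of 579637 in replicate 1 and 164040 of 535296 in replicate 2. Of the 24 genes 9 were lower with this scaling and none was higher. The scaling moved the median of all genes by -0.64 on the log2 scale. Then 23 receptor genes were higher, beside 9.64% of all genes, and 40 were lower, beside 45.9%. All 23 were among the 87, and the 40 comprised the 19 and 21 more, as a scaling that lowers every gene would give. The share of calls that were upward changed from 82.1% to 36.5% for the receptor genes and from 49.0% to 17.4% for all genes. The receptor median became -0.00074. Its distance above the median of all genes was 0.48, beside 0.49 with the TMM scaling. This distance could hardly change, since the scaling moves every gene by nearly the same amount. No marker of a somatic tissue was higher with this scaling, where 2 intestine, 2 muscle, 2 neuron and 3 hypodermis markers were lower, and 5 sperm markers were higher. The part of these marker changes in the receptor results was not tested. Fold changes below are those of the TMM scaling unless the scaling to somatic genes is named.

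**Figure D1:**
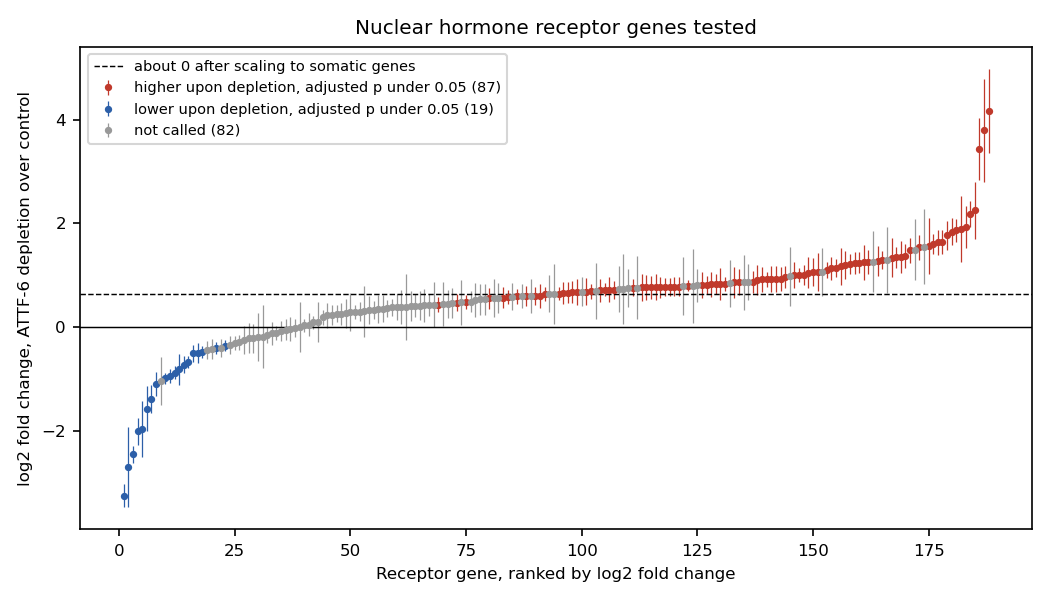
Log2 fold changes (ATTF-6 depletion over control) of the 188 receptor genes tested, ranked, with bars of 1 SE. Red points mark the 87 genes called higher, blue points the 19 called lower and grey points the 82 not called. The dashed line at 0.64 is about where 0 lies after scaling to somatic genes, where 23 were called higher and 40 lower.

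Of the 15 receptors listed as having counterparts in insects and vertebrates, 13 were tested, of which 3 were higher (nhr-6, nhr-8 and nhr-41), 4 were lower (nhr-23, nhr-25, nhr-67 and sex-1) and 6 were not called, with a median of 0.30. These shares of 23.1% and 30.8% lie near the 30.9% and 32.1% of all genes. The gene nhr-239 was too low to test and nhr-111 had under 10 counts. The largest fall was that of sex-1 (X: 10201329-10205421 in WBcel235), which counts X chromosomes in the early embryo and represses xol-1. It was at 4.67 and 4.78 CPM upon depletion, against 23.8 and 28.2 CPM in control, so that each depletion library lay far below each control. The log2 fold change was -2.46 (SE 0.16, edgeR adjusted p = 5.8e-06).

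The receptor nhr-25, of the Ftz-F1 type, acts in molting and epidermal development. It was at 1.23 and 1.22 CPM upon depletion, against 4.76 and 5.20 CPM in control (log2 fold change -2.02, SE 0.26, edgeR adjusted p = 0.00016). The receptor nhr-23, which is related to insect DHR3 and drives the molting program, was at 22.3 and 27.3 CPM upon depletion, against 46.3 and 45.1 CPM in control (-0.88, SE 0.13, adjusted p = 0.00032). The groups did not overlap for either gene. The Tailless relative nhr-67 acts in neurons and the anchor cell. It was at 0.44 and 0.57 CPM upon depletion, against 1.78 and 1.29 CPM in control (-1.58, SE 0.43, adjusted p = 0.011), and this call was lost without control replicate 1 (edgeR adjusted p = 0.11).

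The receptor nhr-6 of the NR4A type, which is needed for the spermatheca, rose the most on this list. It was at 12.2 and 14.6 CPM upon depletion, against 5.53 and 5.40 CPM in control (log2 fold change 1.30, SE 0.18, edgeR adjusted p = 0.00026). It was higher after scaling to somatic genes as well, at 0.65 (adjusted p = 0.013). The DAF-12 relative nhr-8, with roles in cholesterol balance and toxin resistance, was at 28.4 and 26.0 CPM upon depletion, against 15.3 and 18.4 CPM in control (0.69, SE 0.14, adjusted p = 0.0024). Its call was lost without control replicate 1 (0.54, adjusted p = 0.056) and after scaling to somatic genes (0.04). A change of 0.58 (SE 0.13, adjusted p = 0.0044) was called for the TR2/TR4 relative nhr-41, which lost it without control replicate 2 (0.47, adjusted p = 0.11) and was at -0.07 after scaling to somatic genes.

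The dauer and lifespan receptor daf-12 was at 23.5 and 31.2 CPM upon depletion, against 19.6 and 23.2 CPM in control. Both depletion libraries lay above both controls, the nearest by little, and the difference was not called (log2 fold change 0.36, SE 0.16, edgeR adjusted p = 0.081), although it was without depletion replicate 1 (0.54, adjusted p = 2.1e-05). The E75 relative nhr-85 was not called either (0.30, adjusted p = 0.17), but passed without depletion replicate 1 (0.44, adjusted p = 0.015). The difference of the DAF-12 relative nhr-48 was 0.03 (SE 0.12) and that of the GCNF relative nhr-91 0.26 (SE 0.21). The gene nhr-48 was lower after scaling to somatic genes, at -0.61 (adjusted p = 0.0024), and daf-12, nhr-85 and nhr-91 had values of -0.28, -0.34 and -0.39 and were not called.

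Among all receptor genes the deepest fall was that of nhr-2 (I: 5818474-5821134), a receptor expressed in the early embryo and needed for embryogenesis. It had 28 and 48 counts upon depletion, against 475 and 423 in control, which is 1.23 and 1.72 CPM upon depletion and 14.6 and 14.0 CPM in control (log2 fold change -3.26, SE 0.22, edgeR adjusted p = 6.9e-06). Of the 6 receptors listed for molting and embryogenesis, nhr-2, nhr-23 and nhr-25 were lower and none was higher. Over all genes 32.1% were lower and 30.9% higher. The other members of this list, nhr-85, nhr-40 and nhr-60, had log2 fold changes of 0.30, 0.38 and 0.0049 and were not called. The span of nhr-40 overlaps that of another gene on its strand, and whether their exons overlap was not examined. The receptor nhr-40 was called without depletion replicate 1 (0.52). With scaling to somatic genes nhr-40 and nhr-60 were at -0.26 and -0.64, not called.

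Receptors that specify neurons were near the limit of detection in these whole animals, and of the 4 listed nhr-67 was lower, odr-7 was not tested and the others were not called. The COUP-TF relative unc-55, which sets the synaptic pattern of VD motor neurons, was at 0.53 and 1.37 CPM upon depletion, against 0.68 and 0.43 CPM in control. The PNR relative fax-1, which specifies interneurons, was at 0.57 and 0.72 CPM upon depletion, against 0.12 and 0.63 CPM in control. Neither difference was called (edgeR adjusted p = 0.25 and 0.35). The olfactory receptor regulator odr-7 was too low to test, at 0.044 and 0.11 CPM upon depletion and 0.21 and 0.099 CPM in control.

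Receptors with roles in fat, diet and toxin responses included 3 of the 5 most abundant of the family. Of the 17 on this list, all were tested, of which 10 were higher, 4 were lower and 3 were not called, with a median of 0.59, beside 30.9% of all genes higher and 32.1% lower. With scaling to somatic genes none was higher and 6 were lower, beside 9.64% and 45.9% of all genes. The highest level of any receptor gene per kilobase of exon belonged to nhr-114, an intestinal receptor that protects the germ line when dietary tryptophan and vitamin B12 are short. It averaged 62.1 CPM per kb upon depletion and 58.4 CPM per kb in control. Its libraries overlapped, with 104.4 and 84.5 CPM upon depletion and 86.5 and 91.2 CPM in control (log2 fold change 0.09, SE 0.12, edgeR adjusted p = 0.56). It was called higher without depletion replicate 2 (0.18, adjusted p = 0.012) and lower after scaling to somatic genes (-0.56, adjusted p = 0.0024).

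The next in level was nhr-97, at 253.2 and 207.4 CPM upon depletion, against 141.0 and 138.7 CPM in control, or 49.3 CPM per kb upon depletion and 29.9 CPM per kb in control. It was higher by 0.72 (SE 0.12, edgeR adjusted p = 0.00096). The receptor nhr-68, which acts with nhr-10 to switch on the propionate shunt, followed with 43.9 CPM per kb upon depletion and 28.1 CPM per kb in control. It was at 64.0 and 53.0 CPM upon depletion, against 37.7 and 37.1 CPM in control (0.64, SE 0.12, adjusted p = 0.0013). Its partner nhr-10 was at 42.4 and 34.2 CPM upon depletion, against 25.7 and 23.6 CPM in control (0.64, SE 0.13, adjusted p = 0.0028). The groups did not overlap for any of these 3 genes. None of them was called after scaling to somatic genes, with nhr-68 at -0.0040, nhr-10 at -0.01 and nhr-97 at 0.07.

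The receptor nhr-49, a central regulator of fatty acid desaturation and oxidation, went the other way. It was at 60.1 and 65.2 CPM upon depletion, against 77.7 and 83.5 CPM in control (log2 fold change -0.36, SE 0.10, edgeR adjusted p = 0.014). The call was lost without control replicate 1 (-0.43) and without control replicate 2 (-0.33). It was kept after scaling to somatic genes, which lowers every gene and so could hardly end it. Its known partners nhr-66, nhr-80 and nhr-13 did not move together. The receptor nhr-66, which with NHR-49 acts on sphingolipid and lipid breakdown genes, was at 37.7 and 40.2 CPM upon depletion, against 72.9 and 82.0 CPM in control (-0.99, SE 0.11, adjusted p = 7.3e-05). By contrast nhr-80, which raises the desaturase fat-6, was at 17.5 and 14.3 CPM upon depletion, against 9.33 and 9.43 CPM in control (0.76, SE 0.17, adjusted p = 0.0035, and 0.11 after scaling to somatic genes, not called). The change of nhr-13 was -0.50 (adjusted p = 0.043) and was not called when either control replicate was left out or without depletion replicate 2 (adjusted p of 0.066 to 0.17).

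The receptor nhr-86, which senses a toxic bacterial phenazine and induces immune genes in the intestine, was at 22.9 and 22.7 CPM upon depletion, against 35.6 and 37.1 CPM in control (log2 fold change -0.67, SE 0.11, edgeR adjusted p = 0.00069). Both depletion libraries were lower than both controls and nearly equal to each other. The cytochrome P450 regulator nhr-176, known for thiabendazole metabolism, was at 10.1 and 5.96 CPM upon depletion, against 4.08 and 3.58 CPM in control (1.06, SE 0.27, adjusted p = 0.0081, and 0.40 after scaling to somatic genes, not called). Smaller rises of 0.56 to 0.82 were called for the hypoxia-induced nhr-57, nhr-69, which acts with DAF-8 in insulin release, nhr-14, which acts in iron uptake, nhr-64, and nhr-76, which acts in fat loss under serotonin, and none of them was called after scaling to somatic genes, where nhr-14, nhr-57 and nhr-69 had values of -0.05, -0.09 and -0.05, and nhr-64 and nhr-76 of 0.12 and 0.17.

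Each of these calls but that of nhr-76 was also lost without control replicate 2, at edgeR adjusted p of 0.24 for nhr-14, 0.32 for nhr-57, 0.15 for nhr-64 and 0.11 for nhr-69. Without control replicate 1, nhr-57 and nhr-69 had adjusted p of 0.054 and 0.057, and without depletion replicate 1 nhr-57 had 0.063. The gene nhr-57 overlaps lgc-1 on its strand. The receptor nhr-31, needed for the excretory tube, was at -0.12 (SE 0.13) and not called, and nhr-62, needed for the response to dietary restriction, at 0.43 (SE 0.22) and not called (-0.22 after scaling to somatic genes). Without depletion replicate 2, nhr-31 was lower (-0.25, adjusted p = 0.042), as it was after scaling to somatic genes (-0.76, adjusted p = 0.00063).

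The largest rises were those of receptors for which no role is given here. Of the 10 largest rises among genes with 50 counts or more in each depletion library and no overlap between the groups, 9 lay on chromosome V, and all 10 were called higher after scaling to somatic genes too. The receptor nhr-112 (V: 16722061-16723844) led with 6.97 and 6.32 CPM upon depletion, against 1.26 and 1.66 CPM in control (log2 fold change 2.19, SE 0.25, edgeR adjusted p = 8.7e-05). The gene nhr-63 (V: 16002588-16004735) was at 7.50 and 6.86 CPM upon depletion, against 1.78 and 2.15 CPM in control (1.87, SE 0.23, adjusted p = 0.00013). The gene nhr-203 (V: 459795-461899) was at 14.6 and 8.15 CPM upon depletion, against 3.47 and 3.18 CPM in control (1.77, SE 0.28, adjusted p = 0.00063). Its depletion libraries differed widely but both exceeded the controls.

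The remaining large rises were those of nhr-273, nhr-98, nhr-156, nhr-170, nhr-202, nhr-117 and nhr-58, with log2 fold changes of 1.93, 1.84, 1.65, 1.64, 1.60, 1.54 and 1.48. Of these, nhr-273 and nhr-202 overlap nhr-109 and nhr-201 on the same strand, and the counts of nhr-170 include fractions of reads shared with other places, so that their values are uncertain. Larger fold changes than that of nhr-112 were fitted for 4 genes with fewer counts, which are given with their values already known. These 4 passed the filter on low counts only through the depletion libraries, where they are high. Their adjusted p and intervals are therefore no support for a rise. The gene nhr-275 had 27 and 23 counts upon depletion, against 8 and 5 in control (log2 fold change 2.26, SE 0.56, edgeR adjusted p = 0.0065). The gene nhr-229 had 28 and 34 counts upon depletion, against 0 and 4 in control, a ratio of 19.3 (exact 95% interval 7.16 to 72.9, counting error only). The gene nhr-247 had 14 and 11 counts upon depletion, against 0 and 2 in control, a ratio of 15.5 (3.87 to 135). The gene nhr-74 had 41.5 and 47.5 counts upon depletion, against 2.5 and 8.5 in control, also with fractions of shared reads (10.1, interval 5.36 to 20.9).

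The 10 largest falls were taken among genes with 50 counts or more in each control library and no overlap between the groups. They lay on chromosomes I, IV, V and X, with 3 on V. All 10 were called lower after scaling to somatic genes, which lowers every gene and so could hardly end these calls. Beside those given above, nhr-71 was at 14.1 and 12.7 CPM upon depletion, against 26.5 and 25.1 CPM in control (log2 fold change -0.95, SE 0.13, edgeR adjusted p = 0.0003). Its groups stood clearly apart. The gene nhr-12 was at 5.34 and 3.45 CPM upon depletion, against 8.90 and 9.86 CPM in control (-1.103, SE 0.24, adjusted p = 0.0032). The gene nhr-168 changed by -1.39 (SE 0.26, adjusted p = 0.0016). The gene nhr-181 varied widely between the depletion libraries, at 0.22 and 1.15 CPM, against 2.46 and 3.14 CPM in control (-1.97, SE 0.54, adjusted p = 0.011). The call of nhr-78 (-0.82, adjusted p = 0.038) was lost without control replicate 1, control replicate 2 or depletion replicate 2, at adjusted p of 0.051, 0.090 and 0.11.

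**Figure D2:**
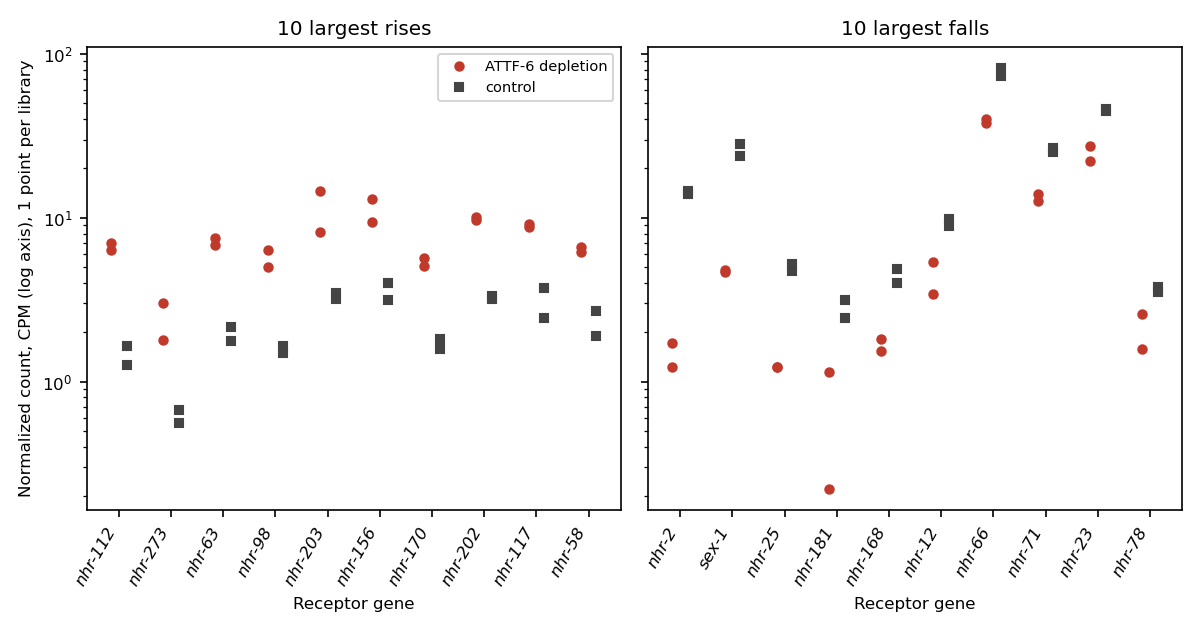
Normalized counts (CPM, log axis) of the receptor genes with the 10 largest rises (left panel) and the 10 largest falls (right panel), 1 point per library, with red circles for ATTF-6 depletion and dark squares for control. In each gene both depletion libraries lie on the same side of both controls, as the choice of these genes required.

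Receptor genes are concentrated on chromosome V, which holds 167 of the 274, or 60.9%, beside 16.8% of all identifiers. The identifiers include many genes too low to test. Among genes tested, chromosome V held 114 of 188 receptor genes and 3322 of all 16591. Of the 114 tested there, 57 were higher and 6 lower, which is 50% and 5.26% beside 35.9% and 24.6% of all genes tested on chromosome V, with medians of 0.71 for the receptor genes and 0.40 for all genes. On chromosome X, 5 of 19 were higher and 3 lower, or 26.3% and 15.8% beside 34.2% and 13.9% of all genes on X. Chromosomes II, III and IV had 6 of 11, 3 of 5 and 13 of 27 receptor genes higher, beside 28.7%, 26.3% and 33.7% of all genes there, and 0, 1 and 6 lower, beside 36.7%, 43.0% and 31.7%. On chromosome I there were 3 higher and 3 lower of 12, beside 25.5% and 42.5% of all genes. Differences between chromosomes were not tested.

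**Figure D3:**
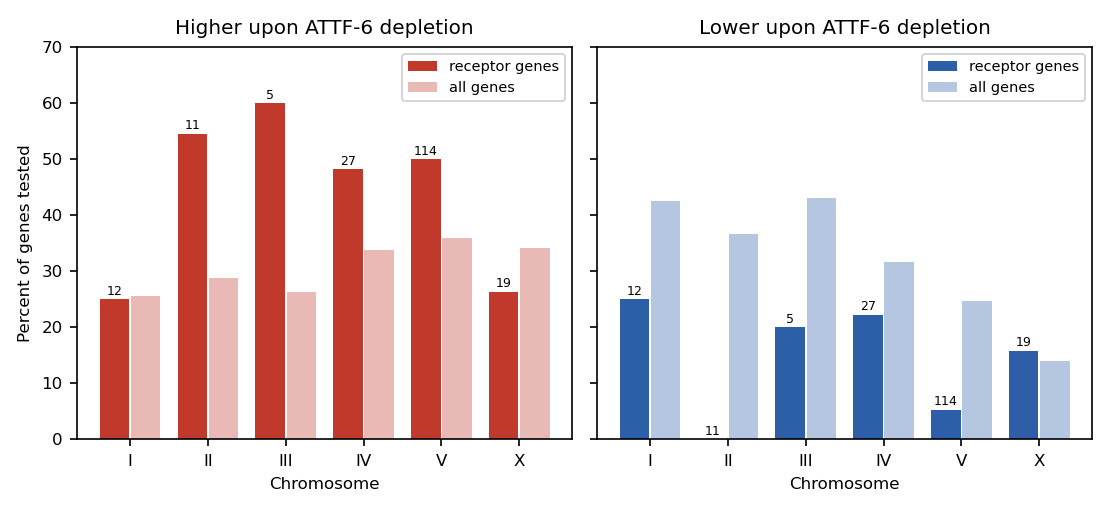
Percent of receptor genes (dark bars, with the number tested above each) and of all genes (pale bars) called higher (left) or lower (right) upon ATTF-6 depletion, by chromosome. On chromosome V 50% of receptor genes were higher and 5.26% lower. With scaling to somatic genes the receptor calls over all chromosomes were 23 higher and 40 lower.

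Many receptor genes stand beside each other. With gaps of at most 10 kb, 12 runs of at least 4 neighbours held 85 members, of which 61 were tested, 36 were higher and 1 was lower, with a median of 0.78. Of the other 189 members, 127 were tested, 51 were higher and 18 were lower, with a median of 0.49. Over all genes tested 30.9% were higher and 32.1% lower, and on chromosome V, which holds most runs, 35.9% and 24.6%. The runs were drawn up after the fold changes were known, and no test was made of them. The longest run by members (V: 451451-497297) holds 12 genes, nhr-123 to nhr-131, of which 10 were higher, with a median of 0.85. Its members summed to 88.1 and 75.2 CPM upon depletion, against 40.7 and 38.9 CPM in control. A run of 9 genes from nhr-133 to nhr-96 (V: 2210510-2235180) had 8 higher, a median of 0.92, and sums of 63.5 and 47.6 CPM upon depletion, against 31.1 and 27.3 CPM in control. A nearby run of 9 genes from nhr-182 to nhr-226 (V: 2257420-2296977) had 6 higher and a median of 0.83.

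Runs of 7 genes each went from nhr-178 to nhr-238 (V: 1603906-1629432), nhr-161 to nhr-42 (V: 6980587-7000651) and nhr-206 to nhr-136 (V: 12092006-12109313). They had 3, 2 and 2 genes higher of 7, 7 and 6 tested, beside 35.9% of all genes on chromosome V. Their medians were 0.60, 0.56 and 0.57. These medians were -0.05, -0.09 and -0.07 after scaling to somatic genes, whereas those of the runs starting at nhr-123, nhr-133 and nhr-182 were 0.21, 0.28 and 0.18. A run on chromosome IV from nhr-122 to nhr-274 (IV: 1613892-1645298) had 3 higher and a median of 0.83 (0.18 after scaling to somatic genes), and nhr-274 at its end was lower (log2 fold change -0.40, SE 0.12, edgeR adjusted p = 0.014). In contrast, no gene of the 9 from nhr-185 to nhr-124 (V: 3844429-3886204) was high enough to test. That run summed to 0.79 and 1.47 CPM upon depletion, against 1.01 and 1.03 CPM in control.

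**Figure D4:**
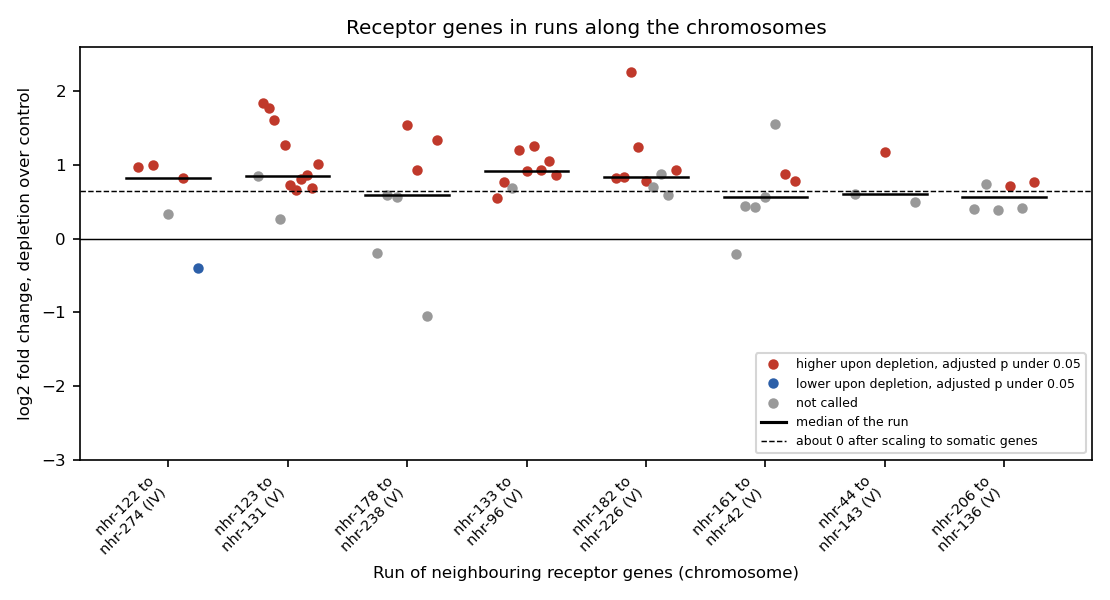
Log2 fold changes (ATTF-6 depletion over control) of receptor genes in the 8 runs of neighbours with at least 3 genes tested, in chromosome order within each run. Red, blue and grey points mark genes called higher, called lower and not called, black bars the median of each run, and the dashed line about where 0 lies after scaling to somatic genes. The runs starting at nhr-123, nhr-133 and nhr-182 have medians of 0.85, 0.92 and 0.83, above the dashed line.

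The level of a receptor gene was a median of 2.37 CPM per kb over the 216 described, between 0.066 and 60.2. Only 18 exceeded 10 CPM per kb and 63 were under 1. The 5 most abundant (nhr-114, nhr-97, nhr-68, nhr-49 and nhr-88) held 25.5% of all receptor counts. The gene nhr-88, whose counts include fractions of shared reads, was at 89.3 and 80.2 CPM upon depletion, against 49.4 and 48.3 CPM in control (log2 fold change 0.79, SE 0.11, edgeR adjusted p = 0.00021, and 0.15 after scaling to somatic genes, not called). Among the genes tested, the lowest level group (63 genes) had 14 higher and 5 lower with a median of 0.64, the middle group (62 genes) 40 and 3 with a median of 0.77, and the highest group (63 genes) 33 and 11 with a median of 0.47, beside 30.9% higher and 32.1% lower over all genes at any level. The 28 genes described but not tested had 10 to 32 summed counts. Just inside the limit of 10 counts, nhr-257 had 4 and 3 counts upon depletion and 0 and 3 in control, and just outside it nhr-149 had 8 and 0 upon depletion and 1 and 0 in control.

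Genes that make or carry receptor ligands, listed together with the corepressor gene din-1, were next compared. Of 9 genes around dafachronic acid, the steroid ligand of DAF-12, 8 were tested. Of these, 5 were higher and 1 was lower, with a median of 1.11, beside 30.9% of all genes higher and 32.1% lower. The cytochrome P450 daf-9, which makes the final step, was at 3.48 and 4.06 CPM upon depletion, against 1.75 and 1.69 CPM in control (log2 fold change 1.13, SE 0.26, edgeR adjusted p = 0.0044). The sterol transporters ncr-1 and ncr-2, relatives of NPC1, rose by 1.19 and 1.27, and these were the 2 upward calls of the list that held after scaling to somatic genes. The methyltransferase strm-1, which lowers the ligand, rose by 1.09, and the P450 reductase emb-8 by 0.37. Scaling to somatic genes ended the calls of daf-9 (0.49), strm-1 (0.45) and emb-8 (-0.27). The DAF-12 corepressor din-1 was lower at -0.43 (adjusted p = 0.011) and was not called when either control replicate was left out. The Rieske oxygenase daf-36 was at 0.36 (adjusted p = 0.087, and -0.29 after scaling to somatic genes) and hsd-1 was too low to test.

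Coregulator genes, which include din-1 of the list above a second time, were mostly lower. Of 7 listed, 6 were lower and none was higher, with a median of -0.53, beside 32.1% of all genes lower and 30.9% higher. All 7 were lower after scaling to somatic genes, beside 45.9% of all genes. Without control replicate 1, 3 of them were called. The SUMO pathway genes ubc-9 and smo-1, the conjugating enzyme and the modifier, which act on receptors among many targets, were lower at -1.35 and -0.999. The acetyltransferase cbp-1 was at 185.6 and 241.5 CPM upon depletion, against 382.1 and 393.0 CPM in control (log2 fold change -0.86, SE 0.14, edgeR adjusted p = 0.00072). The Mediator subunit mdt-15, a partner of NHR-49, was at 132.1 and 157.8 CPM upon depletion, against 208.2 and 209.8 CPM in control (-0.53, SE 0.12, adjusted p = 0.0043).

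Genes listed for pathways of the metabolic receptors were mostly higher with the TMM scaling, and few were after scaling to somatic genes. Not every listed gene is a target of its receptor. Of 13 genes of fat metabolism listed with NHR-49, 7 were higher and 2 lower, with a median of 0.49. Over all genes 30.9% were higher and 32.1% lower. The desaturase fat-2 was at 705.7 and 549.3 CPM upon depletion, against 251.7 and 248.8 CPM in control (log2 fold change 1.33, SE 0.14), and fat-7 rose by 1.03 (SE 0.14). The flavin monooxygenase fmo-2 was lower at -1.24 and the hydratase ech-1.1 at -0.70, while the lipase lipl-4 was higher at 1.25, with 0.97 and 1.15 CPM upon depletion, against 0.52 and 0.36 CPM in control, a call that scaling to somatic genes ended (0.61). Scaling to somatic genes left 2 higher (fat-2 and fat-7), with 5 lower, beside 9.64% and 45.9% of all genes. Without control replicate 1 there were 4 higher and 0 lower, and without control replicate 2 there were 4 higher.

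All 5 genes of the propionate shunt under NHR-10 and NHR-68 were higher, with a median of 0.66, beside 30.9% of all genes higher. The acyl-CoA dehydrogenase acdh-1 was at 1894 and 1527 CPM upon depletion, against 1066 and 1062 CPM in control (log2 fold change 0.69, SE 0.14, edgeR adjusted p = 0.0026). None was called without control replicate 1, without control replicate 2, or after scaling to somatic genes. The counts of 2 of these genes include fractions of shared reads. The methionine and S-adenosylmethionine cycle holds genes that NHR-114 activates when its flux is low. Here 9 of 10 genes were higher, with a median of 0.69, beside 30.9% of all genes. These included the methionine synthase metr-1 (1.06), the phosphoethanolamine methyltransferases pmt-1 (0.80) and pmt-2 (0.92), and the cystathionine synthase cbs-2 (2.03). When either control replicate was left out 5 were higher, and after scaling to somatic genes 2 were higher (metr-1 and cbs-2) and cbs-1 was lower.

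Of 13 molting genes under NHR-23, 4 were higher and 3 lower, with a median of 0.08. These shares of 30.8% and 23.1% stand beside 30.9% and 32.1% of all genes. The apical matrix genes fbn-1, noah-1 and noah-2 were lower at -0.9999, -0.53 and -0.50, and the endocytic receptor lrp-1 and the protease nas-37 were higher at 0.72 and 0.67. With DESeq2 2 were higher, and after scaling to somatic genes none was higher and 8 were lower, beside 9.64% and 45.9% of all genes. Without control replicate 1 there was 1 lower, and without control replicate 2 there was 1 higher.

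**Figure D5:**
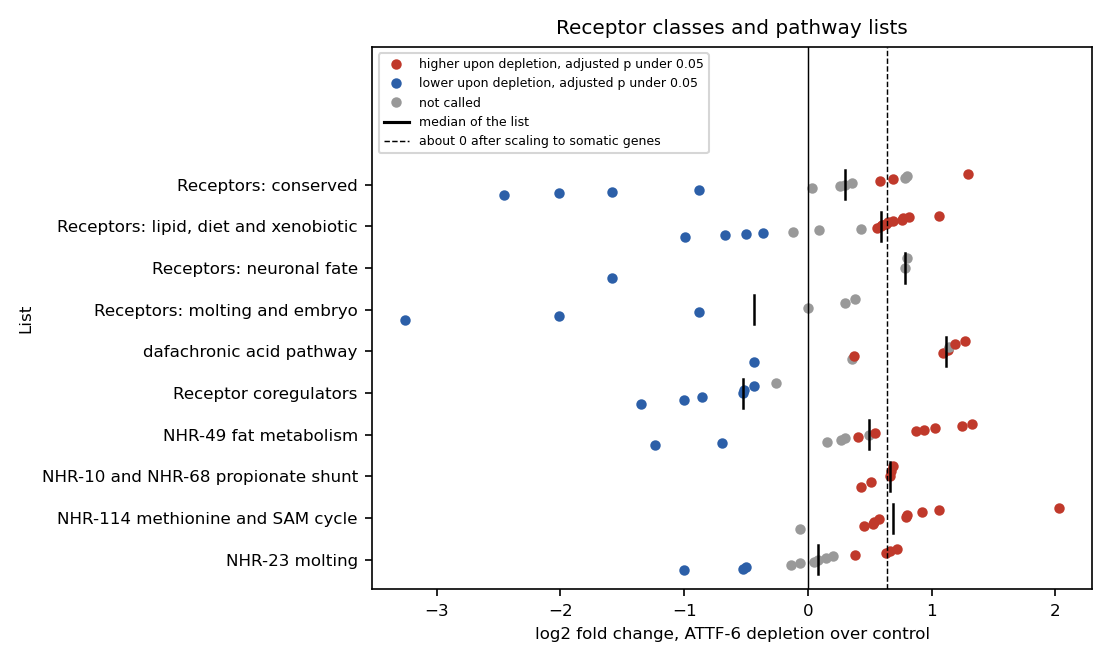
Log2 fold changes (ATTF-6 depletion over control) of genes in 4 lists of receptors and 6 lists of receptor pathways, 1 point per gene. Red, blue and grey points mark genes called higher, called lower and not called, black bars the median of each list, and the dashed line about where 0 lies after scaling to somatic genes. Coregulators have a median of -0.53 and the dafachronic acid genes one of 1.11.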

How the data were processed

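RNA from whole animals was freed of rRNA with RNase H and made into directional libraries. Per the study's methods and the labels' processing notes, the authors trimmed reads with Trim Galore, aligned them to the WS279 genome with STAR and counted them with featureCounts on the sense strand, splitting reads with several alignments. The deposited values are therefore expected counts per gene, with fractions, and were not normalized. Transposon counts made with Salmon were not used here.

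Counts were rounded to whole numbers. Genes were kept by edgeR's filterByExpr (minimum count 10, minimum total 15), scaled by TMM, and tested two-sided with glmQLFit and glmQLFTest (edgeR 4.0.16 in R 4.3.3, prior count 0.125), with Benjamini-Hochberg adjustment over all genes at 0.05. CPM per kb used the summed exon length. Alternatives were DESeq2 1.42.0, its size factors, no filter, scaling to somatic genes, a replicate block, leaving out each library, and leaving out genes with fractional counts. Symbols and positions came from Ensembl 115 (WBcel235) and a symbol table, and 46924 identifiers were in the annotation. A further 14 nhr pseudogenes were not members. No sequences are shown.

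The genes named were those of the receptor lists with at least 10 counts, the 10 largest rises and falls among called members whose groups did not overlap and whose higher group had 50 counts or more in each library, the 5 highest per kilobase, and up to 4 called genes per pathway list. Members and lists were chosen with earlier results of these data known. Intervals cover counting error only.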

Additional observations from a re-analysis of the deposited data

How the results depend on the processing

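No receptor gene called with the TMM scaling was called in the other direction under any alternative run, but nhr-114, not called there, was called higher without depletion replicate 2 and lower after scaling to somatic genes. The number of receptor genes higher upon ATTF-6 depletion was 87, and it was 53 with DESeq2 (254 receptor genes tested), 23 after scaling to somatic genes and 57 to 91 when 1 library was left out, lowest without control replicate 2. The number lower was 19, and it was 40 after scaling to somatic genes and 12 to 24 when 1 library was left out, 12 without control replicate 1 and without control replicate 2. The receptor median of 0.64 was 0.53 with DESeq2, over the 254 genes it fitted, and 0.53 with DESeq2's size factors in edgeR. It was -0.00074 after scaling to somatic genes and 0.55 to 0.68 when 1 library was left out. Of all genes, 1600 were higher after scaling to somatic genes, beside 5120, and leaving out 1 library gave 3562 to 5241 higher and 4680 to 5927 lower, beside 5332. Among named receptor genes called with either scaling, those on the other side of 0 after scaling to somatic genes were at -0.013 for nhr-10, -0.045 for nhr-14, -0.61 for nhr-48, -0.086 for nhr-57, -0.0040 for nhr-68, -0.052 for nhr-69, -0.56 for nhr-114 and -0.067 for nhr-41. With DESeq2, nhr-14, nhr-57, nhr-69 and nhr-78 were not called (adjusted p of 0.077, 0.20, 0.057 and 0.053), nor was nhr-57 with DESeq2's size factors in edgeR (0.079). The cause of these differences was not tested. Replicate numbers did not pair the libraries (correlation of deviations -0.022 over 16591 genes), and a replicate block gave 92 receptor genes higher and 20 lower, with daf-12 and nhr-40 added among the named genes. With 2 libraries a group, small changes of genes under 1 CPM per kb could not be resolved.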
